A study of Mus musculus with 12 samples.

Results

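The genes described here are 10 mouse transcription factors of the ETS family: Spi1, which encodes PU.1, and Fli1, Erg, Etv6, Ets1, Ets2, Elf1, Elf4, Gabpa and Elk3. The array holds 45037 probe sets, of which 34945 carry a single gene symbol and stand for 18193 genes. A probe set is a group of short oligonucleotides on the array that reads 1 transcript. All 24 probe sets whose only symbol was that of a member were kept, whatever their values. The members themselves were chosen with earlier results of these data known. Spi1 had 1 probe set, Fli1, Erg, Etv6, Elf1, Elf4 and Gabpa had 2 each, Ets2 had 3, and Ets1 and Elk3 had 4 each.

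Marrow of female C57BL/6 mice, 4 to 6 weeks old and with no treatment named in the labels, was sorted into 4 progenitor populations, and RNA of 80000 cells a population was read on Affymetrix mouse genome arrays, 12 in all and 3 a population. All 4 populations lacked mature lineage markers and Sca-1 and carried CD117, the stem cell factor receptor. The common myeloid progenitor (CMP) gate, positive for CD34 and negative for CD16/32, was divided by CD27, a tumour necrosis factor receptor family member, into CD27+ CMP and CD27- CMP. Granulocyte-monocyte progenitors (GMP) were sorted with CD34, CD16/32 and CD27, and megakaryocyte-erythrocyte progenitors (MEP) without any of these. The labels name the 3 arrays of a population biological replicates and do not state which animals or pools they came from, so the p-values measure only the spread between these arrays.

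ETS factors share a DNA-binding domain that reads sites around the core GGAA. PU.1 is required for the myeloid and B lymphoid lineages, where it works with factors such as C/EBP alpha and IRF8, and PU.1 and the erythroid factor GATA1 bind and oppose each other. FLI1 and ERG are close relatives that act in blood stem cells, megakaryocytes and endothelium, while ETV6 is a repressor needed by adult blood stem cells.

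Values are log2 signals with the median of each probe set over the 12 arrays set to 0. They give differences between populations, and neither an absolute level nor a comparison of levels between genes. A probe set that is flat in these data may be undetected or even. Differences were tested with limma in 1 fit of all 12 arrays, each is given with its standard error (SE), and each p was adjusted over all 45037 probe sets (Benjamini-Hochberg), with a call at an adjusted p under 0.05. Where 1 probe set stands for a gene, it is the one with the largest standard deviation (SD) over the arrays. Counts of listed genes use such probe sets, while the shares beside them are over all probe sets. A share over the most variable probe sets of all genes was not computed, so these shares are not a matched background.

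The sort marker genes were read as a check of the labels. Cd34 was 7.32 higher on the log2 scale in CD27+ CMP than in CD27- CMP (SE 0.70, adjusted p = 8.3e-05), although both fractions were sorted with the CD34 protein. The 3 CD27- CMP arrays stood at -2.85, -2.88 and -3.93 for Cd34 and the 3 MEP arrays at -3.17, -4.97 and -6.59. Cd27 followed the sort, with a difference of 6.85 between the CMP fractions and 5.73 between GMP and MEP. The CD16/32 genes did not read alike in the CMP fractions, which were both sorted without CD16/32: Fcgr2b was 6.68 log2 higher in CD27+ than in CD27- CMP (SE 0.36, adjusted p = 1.9e-06) and Fcgr3 4.71 higher (SE 0.60, adjusted p = 0.00055). By mean Fcgr3 read 2.20 in CD27+ CMP, -2.51 in CD27- CMP, 7.16 in GMP and -1.64 in MEP. Kit, the gene of CD117, differed by 0.16 between the CMP fractions and by -0.19 between GMP and MEP without passing. Of 6 measured erythroid marker genes, 5 were lower in CD27+ than in CD27- CMP, and all 7 granulocyte and monocyte marker genes were higher. Over all probe sets 14.1% were called in that comparison. In bulk samples, fewer cells of a type and less RNA per cell cannot be told apart, and this holds for every difference below.

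**Figure D1:**
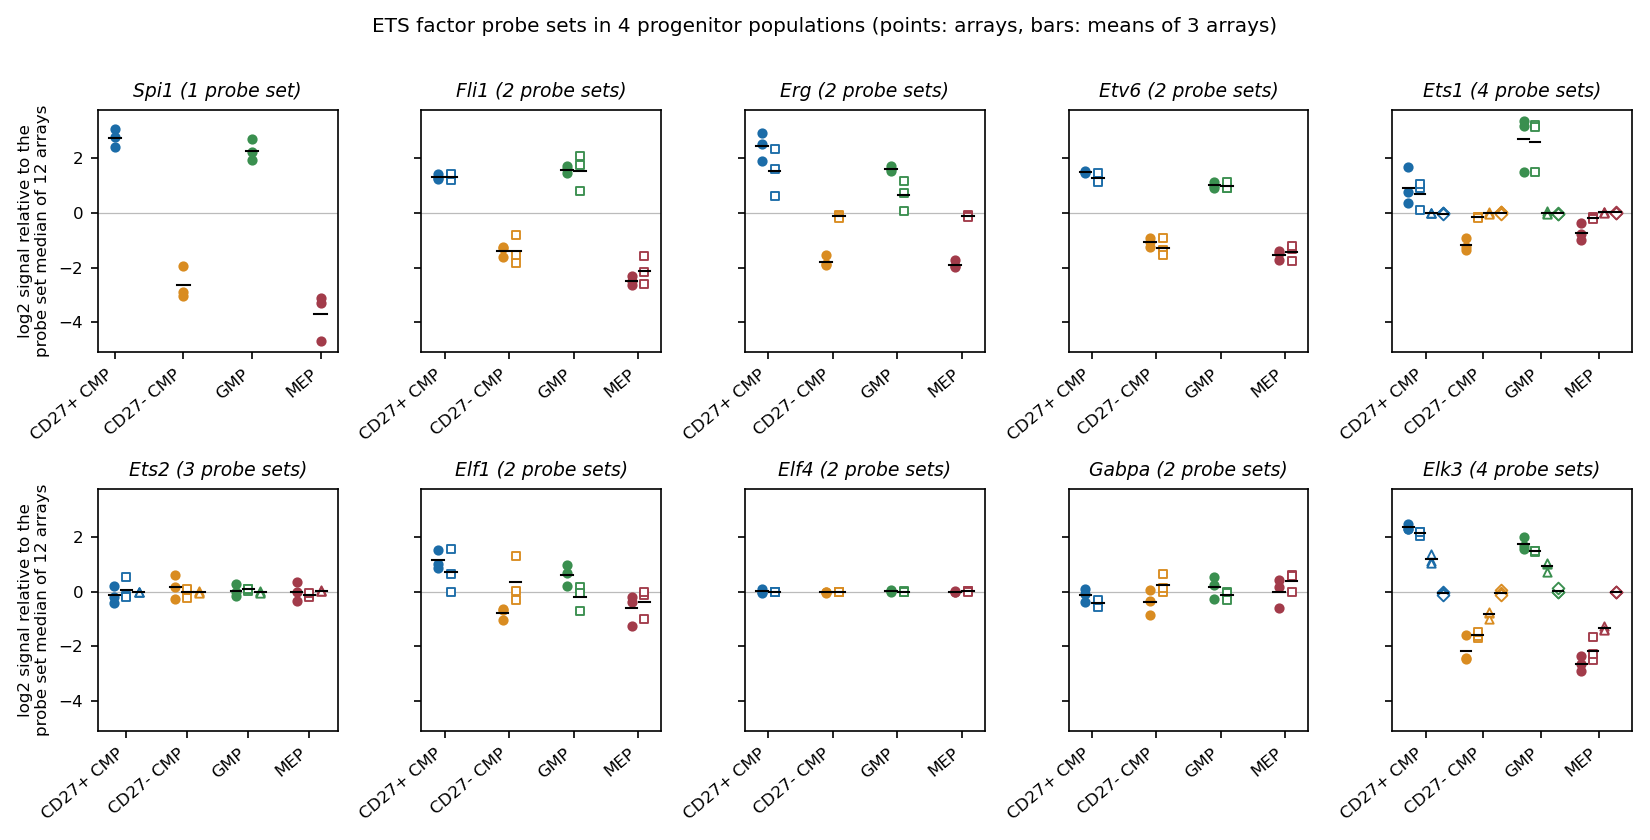
Centred log2 signal (vertical axis, relative to the median of 12 arrays) of the 24 ETS probe sets in CD27+ CMP, CD27- CMP, GMP and MEP. Points are arrays, each column of points within a population is 1 probe set (filled circles: the most variable one), and bars are means of 3 arrays. Spi1, Fli1, Erg, Etv6 and Elk3 stand high in CD27+ CMP and GMP and low in CD27- CMP and MEP. The most variable probe sets of Ets1 and Fli1 have their highest means in GMP, and Ets2 and Elf4 stay near 0.

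In CD27+ against CD27- CMP, 12 of the 24 member probe sets were called, all of them higher in CD27+ CMP, while 14.1% of all probe sets were called and 7.65% were called and higher. They belong to 7 of the 10 genes: Spi1, Fli1, Erg, Etv6, Ets1, Elf1 and Elk3. Ets2, Elf4 and Gabpa had no call. In GMP against MEP again 12 of 24 were called, all higher in GMP, beside 14.8% of all probe sets called and 7.54% called and higher, and they belong to the same 7 genes. The median difference over the 24 member probe sets was 1.26 log2 in CD27+ against CD27- CMP and 1.00 in GMP against MEP, beside -0.02 and -0.04 over all probe sets. These 2 main comparisons share no arrays, but they come from 1 fit with a common estimate of spread. Same-numbered arrays of CD27+ CMP and GMP also deviated together (r = 0.57, 0.23 and 0.26).

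**Figure D2:**
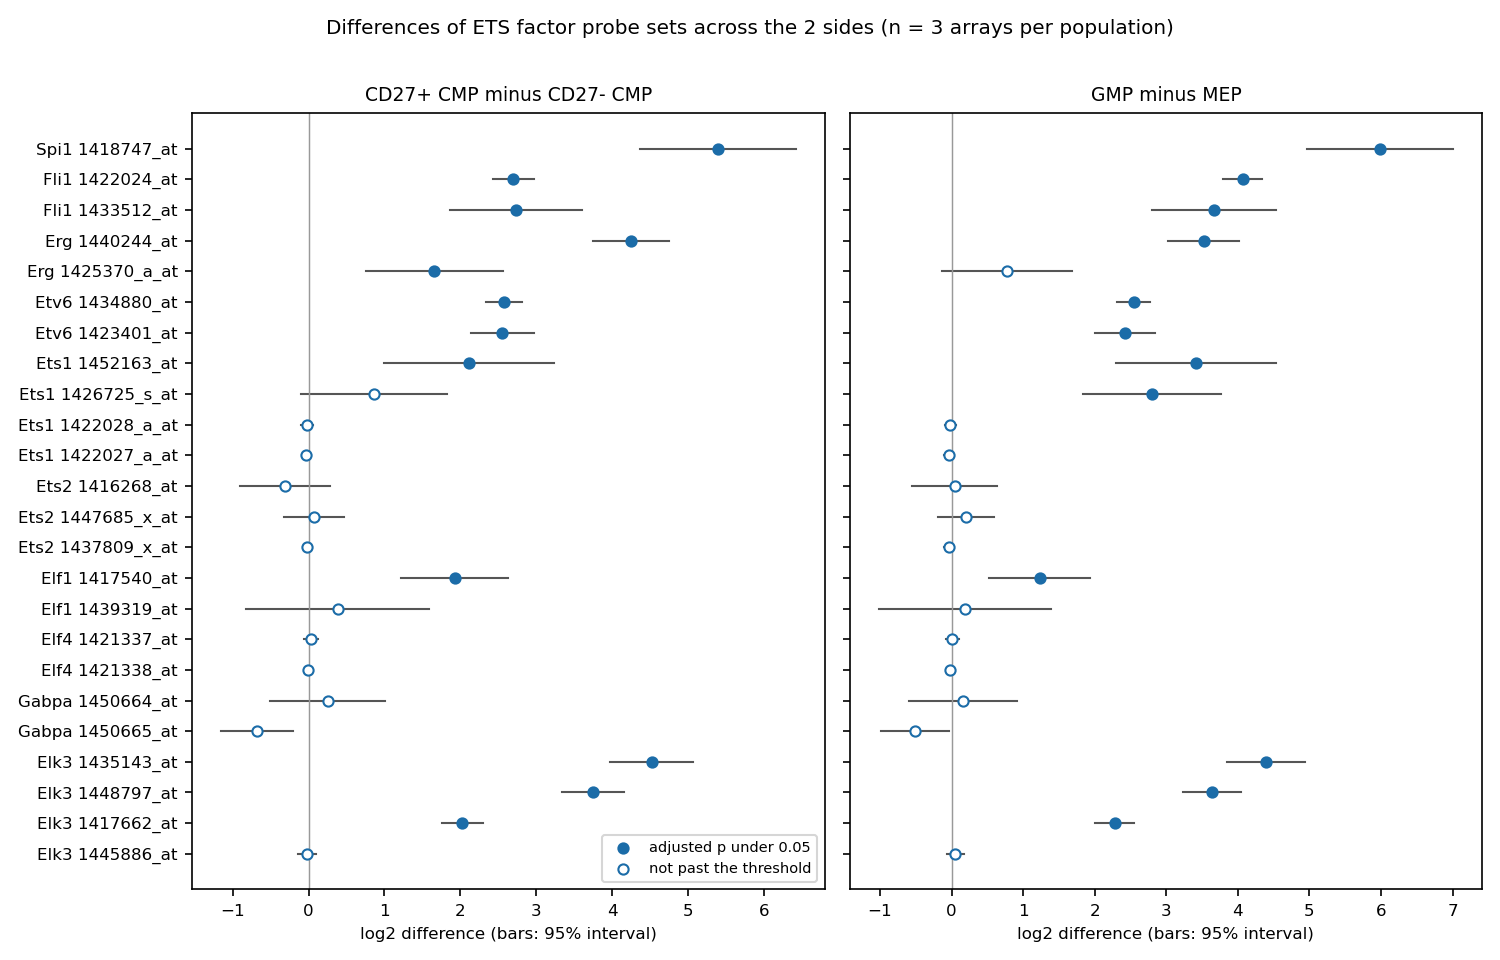
Log2 difference (horizontal axis, with 95% intervals) of each ETS probe set in CD27+ CMP minus CD27- CMP (left) and GMP minus MEP (right). Filled points passed the threshold. All filled points lie right of 0, with Spi1 farthest right at 5.39 and 5.99.

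Spi1 showed the largest difference of the 24 probe sets in both comparisons. Its probe set 1418747_at read 3.06, 2.80 and 2.43 in CD27+ CMP, -1.93, -2.89 and -3.05 in CD27- CMP, 2.23, 1.93 and 2.71 in GMP, and -4.69, -3.11 and -3.28 in MEP. All CD27+ CMP and GMP arrays stood above all CD27- CMP and MEP arrays, with no overlap. Spi1 was 42.0-fold higher in CD27+ than in CD27- CMP (log2 5.39, SE 0.45, adjusted p = 3.5e-05) and 63.4-fold higher in GMP than in MEP (log2 5.99, SE 0.45, adjusted p = 1.5e-05). It was also 6.46 log2 higher in CD27+ CMP than in MEP and was lower in CD27- CMP than in GMP (log2 -4.92), both called. These last comparisons reuse the arrays of the first ones.

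By mean the order of Spi1 was CD27+ CMP (2.76 ± 0.32, SD, n = 3), GMP (2.29 ± 0.39), CD27- CMP (-2.63 ± 0.61) and MEP (-3.69 ± 0.87). The neighbours at the upper end did not differ beyond their spread: CD27+ CMP minus GMP was 0.47 log2, with a 95% interval of -0.55 to 1.5, and the arrays overlapped. At the lower end all 3 CD27- CMP arrays stood above all 3 MEP arrays, with a difference of 1.07 log2 (SE 0.45, 95% interval 0.04 to 2.09), which did not pass over all probe sets (adjusted p = 0.79). The GCRMA method behind the deposited signals pulls weak readings to a background level, which leaves folds against a low population uncertain in size.

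Fli1, a factor required for megakaryocyte maturation, followed the same order except at the top, and both of its probe sets were called. The more variable, 1422024_at, read 1.42, 1.23 and 1.29 in CD27+ CMP, -1.23, -1.61 and -1.29 in CD27- CMP, 1.61, 1.72 and 1.45 in GMP, and -2.63, -2.48 and -2.31 in MEP. Arrays of a population lay close together and no pair of populations overlapped. Fli1 was 6.47-fold higher in CD27+ than in CD27- CMP (log2 2.69, SE 0.12, adjusted p = 5.7e-07) and 16.8-fold higher in GMP than in MEP (log2 4.07, SE 0.12, adjusted p = 3.9e-08). MEP, named for megakaryocytes and erythrocytes, had the lowest Fli1 signal of the 4 populations.

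The second Fli1 probe set, 1433512_at, read 1.40, 1.19 and 1.42 in CD27+ CMP, -0.81, -1.83 and -1.54 in CD27- CMP, 1.75, 2.08 and 0.81 in GMP, and -1.59, -2.16 and -2.60 in MEP. It gave like differences of 2.73 log2 between the CMP fractions (SE 0.38, adjusted p = 0.00096) and 3.66 between GMP and MEP (SE 0.38, adjusted p = 0.00013). Its GMP and CD27+ CMP arrays overlapped, as did its CD27- CMP and MEP arrays.

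Erg, a regulator of blood stem cell maintenance, was high in CD27+ CMP and GMP. Its more variable probe set, 1440244_at, read 2.52, 1.92 and 2.94 in CD27+ CMP, -1.92, -1.87 and -1.55 in CD27- CMP, 1.55, 1.74 and 1.60 in GMP, and -1.74, -1.95 and -1.97 in MEP. CD27+ CMP stood above GMP in every array, and CD27- CMP and MEP overlapped. Erg was 18.9-fold higher in CD27+ than in CD27- CMP (log2 4.24, SE 0.22, adjusted p = 1.6e-06) and 11.5-fold higher in GMP than in MEP (log2 3.52, SE 0.22, adjusted p = 4.3e-06). The 0.83 log2 between CD27+ CMP and GMP did not pass (SE 0.22, 95% interval 0.32 to 1.33, adjusted p = 0.11).

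The other Erg probe set, 1425370_a_at, read 1.63, 0.62 and 2.35 in CD27+ CMP, -0.09, -0.10 and -0.19 in CD27- CMP, 0.75, 0.06 and 1.19 in GMP, and -0.06, -0.11 and -0.16 in MEP. It spread more within CD27+ CMP and GMP than the first, and the lower populations were flat. It was called in CD27+ against CD27- CMP (log2 1.66, SE 0.40, adjusted p = 0.022) and not in GMP against MEP (log2 0.77, SE 0.40, adjusted p = 0.28). The call between the CMP fractions ended without CD27+ CMP replicate 1 (log2 1.61, adjusted p = 0.072) or replicate 3 (1.25, adjusted p = 0.06) and without CD27- CMP replicate 1 (1.68, adjusted p = 0.059) or replicate 2 (1.67, adjusted p = 0.062).

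Promoter sequences of RefSeq (GRCm38.p6) were matched by symbol for 7 of the 10 members, and 4 are shown: those of Erg, Etv6 and Elk3, which were called in both main comparisons, and that of Gabpa, which was not. Each is the 250 bases before a listed start, 5′ to 3′ on the strand of the gene, with the ETS core GGAA or its reverse complement TTCC in capitals. They lie at chr16:95586594-95586843 (Erg, minus strand, the first of 3 listed starts), chr6:134035450-134035699 (Etv6, plus strand), chr10:93311160-93311409 (Elk3, minus strand) and chr16:84834874-84835123 (Gabpa, plus strand).
Erg: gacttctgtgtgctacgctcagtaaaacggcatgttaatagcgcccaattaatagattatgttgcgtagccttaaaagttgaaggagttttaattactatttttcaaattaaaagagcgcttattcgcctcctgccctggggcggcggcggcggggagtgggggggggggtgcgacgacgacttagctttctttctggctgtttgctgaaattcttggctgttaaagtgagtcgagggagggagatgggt
Etv6: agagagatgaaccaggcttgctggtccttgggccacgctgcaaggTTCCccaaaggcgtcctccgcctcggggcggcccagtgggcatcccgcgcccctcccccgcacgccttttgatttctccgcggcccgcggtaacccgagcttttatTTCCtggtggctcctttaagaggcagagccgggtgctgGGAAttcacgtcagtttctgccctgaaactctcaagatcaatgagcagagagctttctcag
Elk3: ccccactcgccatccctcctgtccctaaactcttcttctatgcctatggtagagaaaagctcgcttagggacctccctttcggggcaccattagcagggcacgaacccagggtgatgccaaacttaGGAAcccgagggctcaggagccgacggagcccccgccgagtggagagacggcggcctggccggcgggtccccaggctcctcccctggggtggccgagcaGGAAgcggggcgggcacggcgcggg
Gabpa: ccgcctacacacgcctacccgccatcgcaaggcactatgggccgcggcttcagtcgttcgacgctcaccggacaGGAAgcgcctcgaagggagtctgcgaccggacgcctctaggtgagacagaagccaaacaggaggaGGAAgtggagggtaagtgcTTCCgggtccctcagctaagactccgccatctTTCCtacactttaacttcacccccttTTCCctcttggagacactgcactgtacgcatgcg
On both strands together the Erg window holds 0 copies of GGAA, that of Etv6 holds 3, that of Elk3 holds 2 and that of Gabpa holds 5. The other Erg starts hold 4 and 2 copies, the Ets2 start 1, the Elf1 starts 2 and 0, and the Elf4 starts 6 and 2. Of 32851 mouse promoter windows of the same length, 93.4% hold GGAA, with a median of 3 copies. Longer forms that contain the core were searched on both strands too: CCGGAA is in 12% of windows and in that of Gabpa, and GAGGAA is in 23.3% of windows and in those of Gabpa and of both Elf4 starts. A match is a run of letters and does not show binding.

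Etv6, the repressor, was even within populations. Its probe set 1434880_at read 1.54, 1.46 and 1.51 in CD27+ CMP, -1.05, -0.93 and -1.24 in CD27- CMP, 1.13, 0.93 and 1.00 in GMP, and -1.45, -1.74 and -1.38 in MEP. No pair of populations overlapped, and the order was that of Spi1. Etv6 was 5.96-fold higher in CD27+ than in CD27- CMP (log2 2.58, SE 0.10, adjusted p = 3.4e-07) and 5.82-fold higher in GMP than in MEP (log2 2.54, SE 0.10, adjusted p = 2.8e-07). Its second probe set, 1423401_at, gave 2.55 (SE 0.18, adjusted p = 1.3e-05) and 2.43 (SE 0.18, adjusted p = 1.5e-05).

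Elk3 is a ternary complex factor that binds DNA beside serum response factor and represses until Ras signalling reaches it. Probe set 1435143_at read 2.30, 2.33 and 2.48 in CD27+ CMP, -1.58, -2.41 and -2.46 in CD27- CMP, 1.68, 1.58 and 2.03 in GMP, and -2.33, -2.65 and -2.91 in MEP. CD27+ CMP was above GMP in every array, and CD27- CMP overlapped MEP. After Spi1 this was the largest difference of a member, 22.9-fold higher in CD27+ than in CD27- CMP (log2 4.52, SE 0.24, adjusted p = 1.9e-06) and 21-fold higher in GMP than in MEP (log2 4.39, SE 0.24, adjusted p = 1.8e-06). Probe sets 1448797_at and 1417662_at were called too, with 3.74 and 2.02 log2 between the CMP fractions and 3.64 and 2.28 between GMP and MEP. The fourth Elk3 probe set, 1445886_at, was flat, with a range of 0.27 log2 over the 12 arrays.

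Ets1, best known from lymphocytes, had its highest mean in GMP by its most variable probe set, as Fli1 did. CD27+ CMP minus GMP was -1.76 log2 for Ets1 and -0.28 for Fli1 by these probe sets, and neither was called. Probe set 1452163_at read 0.77, 1.67 and 0.36 in CD27+ CMP, -1.23, -1.36 and -0.93 in CD27- CMP, 3.19, 3.39 and 1.52 in GMP, and -0.36, -0.78 and -1.0 in MEP. GMP replicate 3 lay below the other GMP arrays and within the CD27+ CMP range, and CD27- CMP and MEP overlapped. Ets1 was 10.7-fold higher in GMP than in MEP (log2 3.41, SE 0.50, adjusted p = 0.0011) and 4.31-fold higher in CD27+ than in CD27- CMP (log2 2.11, SE 0.50, adjusted p = 0.019). The call between the CMP fractions ended without CD27+ CMP replicate 2 (1.74, adjusted p = 0.064) and without CD27- CMP replicate 1 (2.08, adjusted p = 0.058) or replicate 2 (2.01, adjusted p = 0.066).

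The second Ets1 probe set to move, 1426725_s_at, read 0.94, 1.06 and 0.13 in CD27+ CMP, -0.13, -0.16 and -0.18 in CD27- CMP, 3.21, 3.16 and 1.49 in GMP, and -0.15, -0.18 and -0.21 in MEP. It was called in GMP against MEP (log2 2.80, SE 0.42, adjusted p = 0.0015) and not in CD27+ against CD27- CMP (log2 0.86, SE 0.42, adjusted p = 0.28). Probe sets 1422028_a_at and 1422027_a_at of Ets1 stayed within ranges of 0.11 and 0.09 log2. Ets1 and Fli1 are neighbours on chromosome 9 and Erg and Ets2 on chromosome 16, with 0 protein-coding genes between the members of either pair in RefSeq. Ets2, which is close to Ets1 in sequence and is activated through MAP kinases, was called in no comparison: its most variable probe set, 1416268_at, differed by -0.31 log2 between the CMP fractions (95% interval -0.91 to 0.28) and by 0.04 between GMP and MEP (-0.55 to 0.64). Fli1 and Ets1 were thus both called in the main comparisons, while of Erg and Ets2 only Erg was.

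Elf1, an activator found in most blood cells, showed smaller differences in its more variable probe set, 1417540_at. The arrays read 1.55, 0.88 and 1.03 in CD27+ CMP, -0.63, -1.03 and -0.65 in CD27- CMP, 1.00, 0.69 and 0.20 in GMP, and -0.20, -0.36 and -1.24 in MEP. CD27+ CMP overlapped GMP and CD27- CMP overlapped MEP, and no other populations overlapped. Elf1 was 3.79-fold higher in CD27+ than in CD27- CMP (log2 1.92, SE 0.31, adjusted p = 0.0024) and 2.34-fold higher in GMP than in MEP (log2 1.23, SE 0.31, adjusted p = 0.026). The GMP call ended without GMP replicate 1 (1.04, adjusted p = 0.1) or replicate 2 (1.20, adjusted p = 0.078) and without MEP replicate 3 (0.91, adjusted p = 0.067), and the mean of both probe sets gave 0.71 (adjusted p = 0.18). The other Elf1 probe set, 1439319_at, was called nowhere. It read 1.57, -0.01 and 0.64 in CD27+ CMP, 0.04, -0.31 and 1.33 in CD27- CMP, 0.19, -0.70 and -0.03 in GMP, and -0.10, -1.0 and 0.01 in MEP, with overlap throughout.

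Gabpa encodes the DNA-binding subunit of GABP, which drives many housekeeping and mitochondrial genes. Its most variable probe set, 1450664_at, was called nowhere and had a range of 1.39 log2. It differed by 0.25 log2 between the CMP fractions (95% interval -0.50 to 1.01) and by 0.16 between GMP and MEP (-0.59 to 0.92). Its lowest mean was in CD27- CMP (-0.37). Probe set 1450665_at read -0.36, -0.57 and -0.30 in CD27+ CMP, 0.00, 0.14 and 0.67 in CD27- CMP, 0.00, -0.03 and -0.30 in GMP, and 0.61, 0.60 and 0.01 in MEP. Unlike 1450664_at, it ran opposite to the genes above, with CD27+ CMP lowest by mean. It was lower in CD27+ CMP than in MEP (log2 -0.82, SE 0.21, adjusted p = 0.026), while the CMP fractions (log2 -0.68, adjusted p = 0.063) and GMP against MEP (log2 -0.51, adjusted p = 0.16) did not pass. The call ended without any of the 3 CD27+ CMP arrays (adjusted p = 0.064, 0.087 and 0.053) and without MEP replicate 1 or 2 (0.096 each), and the differences there ran from -0.87 to -0.71. Elf4, a factor that limits blood stem cell quiescence, read within 0.12 of 0 in all arrays in both probe sets, and its most variable one, 1421337_at, had a range of 0.15 log2.

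In the pairs that cross the main comparisons and reuse their arrays, 12 member probe sets were called in CD27+ CMP against MEP, 11 higher and 1, that of Gabpa, lower, beside 16% of all probe sets called and 7.67% called and higher. In CD27- CMP against GMP, 12 were lower and 0 higher, beside 14.2% of all probe sets called and 7.9% called and lower. Fli1 was 13.8-fold higher in CD27+ CMP than in MEP (log2 3.79, SE 0.12, adjusted p = 6.1e-08), Erg 20.3-fold (log2 4.35, SE 0.22, adjusted p = 1.2e-06) and Elk3 31.9-fold (log2 5.0, SE 0.24, adjusted p = 8.5e-07). Ets1 (1452163_at) did not pass in CD27+ CMP against MEP (log2 1.65, SE 0.50, adjusted p = 0.054), but passed without GMP replicate 3 (adjusted p = 0.0083). It was 14.6-fold lower in CD27- CMP than in GMP (log2 -3.87, SE 0.50, adjusted p = 0.00054). The Erg probe set 1425370_a_at passed in CD27+ CMP against MEP (log2 1.64, adjusted p = 0.021), and this call ended without CD27+ CMP replicate 1 (1.59, adjusted p = 0.068) or replicate 3 (1.24, adjusted p = 0.056) or any MEP array (1.67, 1.64 and 1.62, adjusted p = 0.057, 0.062 and 0.06). Elf1 was lower in CD27- CMP than in GMP (log2 -1.40, adjusted p = 0.014), a call that ended without CD27- CMP replicate 2 (-1.27, adjusted p = 0.057) or GMP replicate 1 (-1.21, adjusted p = 0.06) and in the mean of both probe sets (-0.43, adjusted p = 0.48).

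CD27+ CMP against GMP asks what separates the populations that carry CD27. Here 2 of 24 member probe sets were called, 1 higher and 1 lower, beside 3.04% of all probe sets. Etv6 was 1.40-fold higher in CD27+ CMP than in GMP by 1434880_at (log2 0.49, SE 0.10, adjusted p = 0.041), and its other probe set gave 0.27 (95% interval -0.15 to 0.69). The Ets1 probe set 1426725_s_at was 3.76-fold lower in CD27+ CMP (log2 -1.91, SE 0.42, adjusted p = 0.049), and 1452163_at gave -1.76 without passing (SE 0.50, adjusted p = 0.13). Fli1 differed by -0.28 log2 (95% interval -0.55 to -0.01) and Elk3 by 0.60 (95% interval 0.06 to 1.15), neither of them called.

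Both calls between CD27+ CMP and GMP ended when single arrays were left out. The Etv6 call ended without CD27+ CMP replicates 1, 2 or 3 (adjusted p = 0.13, 0.09 and 0.13), CD27- CMP replicate 1 (0.065), GMP replicates 1, 2 or 3 (0.064, 0.16 and 0.10) or MEP replicate 1 (0.065), while its size stayed between 0.44 and 0.54. It also ended with the replicate number as a block (0.49, adjusted p = 0.074). The Ets1 call by 1426725_s_at ended in 11 of 12 omissions of an array, with differences from -2.09 to -1.62 and adjusted p from 0.077 to 0.18. Without GMP replicate 3 it became larger (-2.48, adjusted p = 0.001), and 1452163_at then passed too (-2.35, adjusted p = 0.011).

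**Figure D3:**
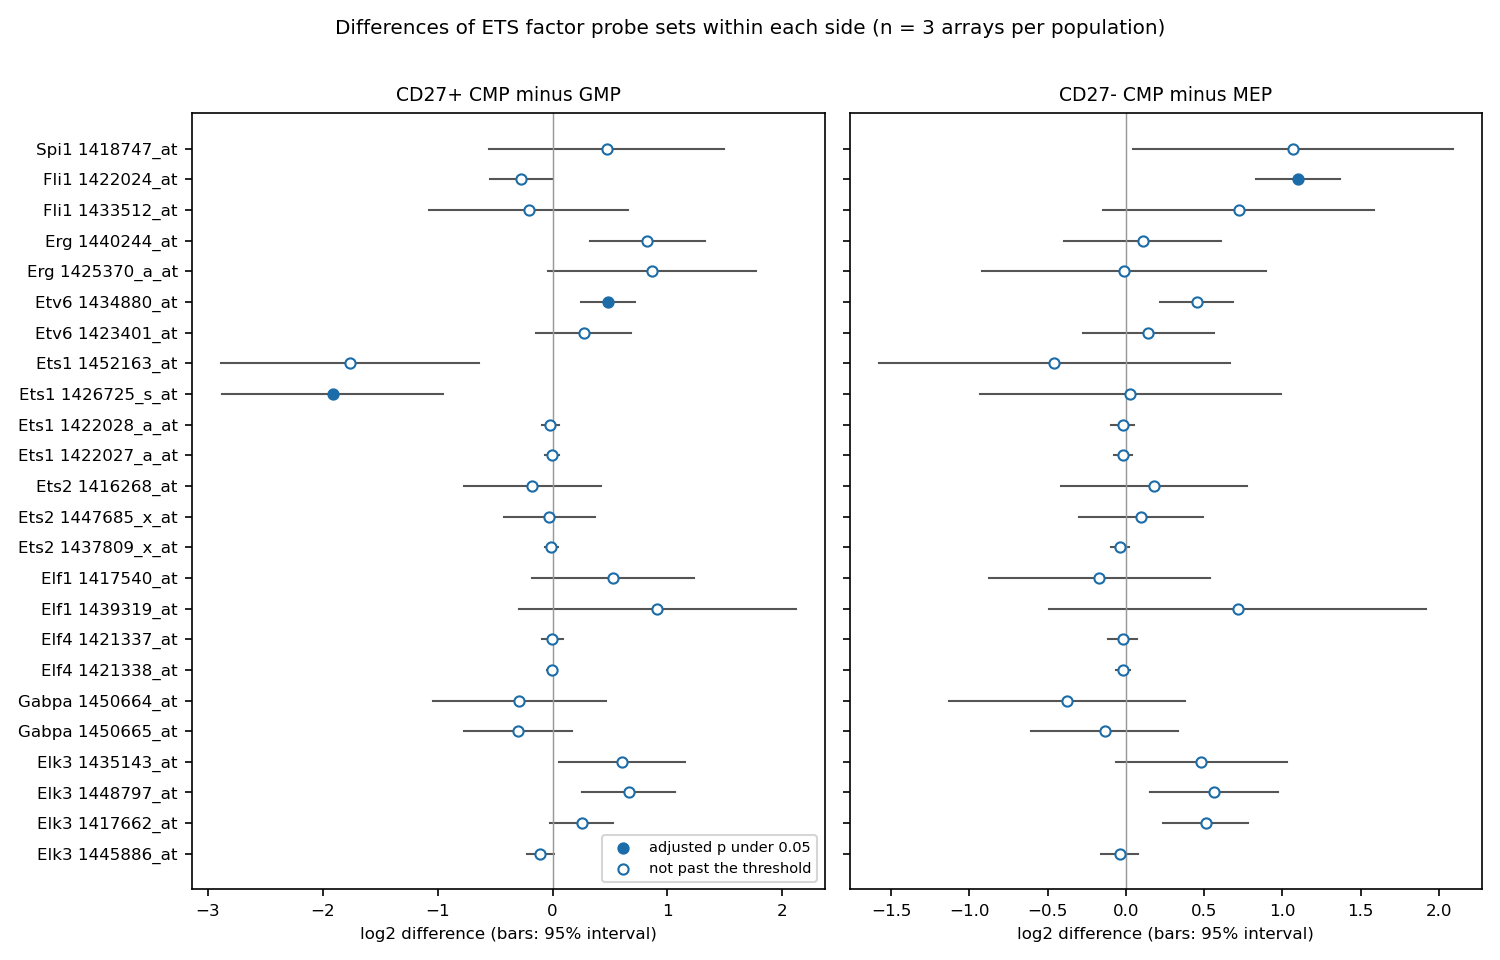
Log2 difference (horizontal axis, with 95% intervals) of each ETS probe set in CD27+ CMP minus GMP (left) and CD27- CMP minus MEP (right). Filled points passed the threshold: Etv6 at 0.49 and Ets1 at -1.91 on the left, and Fli1 at 1.10 on the right.

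CD27- CMP against MEP asks what separates the populations that lack CD27. Fli1 was 2.14-fold higher in CD27- CMP by probe set 1422024_at (log2 1.10, SE 0.12, 95% interval 0.83 to 1.37, adjusted p = 0.018). It was the only call among the 24 member probe sets, in a comparison in which 0.0444% of all probe sets, 20 of 45037, were called, 5 of them higher and 15 lower in CD27- CMP. At an unadjusted p under 0.05 there were 2435. The other Fli1 probe set gave 0.72 log2 (SE 0.38, 95% interval -0.15 to 1.59, adjusted p = 0.79), with overlapping arrays. The call by 1422024_at ended without GMP replicate 1 (log2 1.10, adjusted p = 0.055) and without MEP replicate 2 (1.09, adjusted p = 0.074). It also ended after quantile normalization (0.86, adjusted p = 0.11), with the replicate number as a block (1.10, adjusted p = 0.089) and in the mean of both probe sets (0.91, adjusted p = 0.33). Etv6 by 1434880_at (0.45, SE 0.10, adjusted p = 0.35) and Elk3 by 1417662_at (0.51, SE 0.12, adjusted p = 0.38) stood higher in every CD27- CMP array without passing. The arrays overlapped in the other Etv6 probe set (0.14) and in all other Elk3 probe sets, among them the most variable, 1435143_at (0.48).

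Whether the CMP fractions differ by as much as GMP and MEP was tested as a difference of differences. Fli1 by 1422024_at was the 1 member probe set of 24 called, beside 1.1% of all probe sets: its difference between CD27+ and CD27- CMP was smaller than that between GMP and MEP (log2 -1.37, SE 0.17, 95% interval -1.75 to -0.99, adjusted p = 0.0063). The other Fli1 probe set gave -0.93 without passing (SE 0.54, 95% interval -2.15 to 0.30, adjusted p = 0.99), and the call ended in the mean of both probe sets (-1.15, adjusted p = 0.12). For Spi1 the difference was -0.59 (95% interval -2.04 to 0.85), for Erg 0.72 (0.01 to 1.43), for Etv6 0.03 (-0.30 to 0.37), for Elk3 0.12 (-0.65 to 0.90) and for Elf1 0.69 (-0.30 to 1.69). None of these passed. Ets1 by 1426725_s_at gave -1.94 (SE 0.60, adjusted p = 0.33) and passed without GMP replicate 3 (-2.50, adjusted p = 0.0092).

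Of 16 other genes of the ETS family, 14 were measured. In CD27+ against CD27- CMP 2 of the 14 were higher and 0 lower, beside 14.1% of all probe sets called. In GMP against MEP 2 of the 14 were called, beside 14.8%. Both counts are near the share over all probe sets, which is not limited to the most variable probe set of a gene. Higher in CD27+ than in CD27- CMP were Etv3, a repressor, by 1.00 log2 (SE 0.18, adjusted p = 0.0039) and Elf2, a relative of Elf1, by 0.54 (SE 0.11, adjusted p = 0.0074). The other Elf2 probe sets gave 0.06 and 0.00, and the mean of all 3 gave 0.20 without passing (adjusted p = 0.083). Etv5 passed as lower without CD27- CMP replicate 3 (-1.02, adjusted p = 0.013) and in the mean of its probe sets (-0.39, adjusted p = 0.0047), and Elf3 passed as lower without CD27- CMP replicate 2 (-0.33, adjusted p = 0.015). In GMP against MEP Etv3 was higher by 0.69 and Etv5, of another subfamily, was lower (log2 -1.09, SE 0.29, adjusted p = 0.03). The Etv3 call in GMP ended without GMP replicate 1 or 2 or MEP replicate 2 or 3 (adjusted p from 0.074 to 0.096), and that of Etv5 without any GMP array or MEP replicate 1 or 2 (from 0.08 to 0.10). In the mean of its probe sets the Etv3 call in GMP ended too (0.24, adjusted p = 0.096). No other probe set of the called genes was called the same way in either main comparison. The median over the 14 genes was -0.02 between the CMP fractions and -0.03 between GMP and MEP. Over the 10 members the medians of the most variable probe sets were 2.34 and 2.98, beside -0.03 and -0.04 over all genes. The members were chosen with earlier results of these data known.

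PU.1 activates genes of phagocytes and lymphocytes, and 17 of 18 listed targets were measured. In CD27+ against CD27- CMP 14 were higher and 0 lower, beside 14.1% of all probe sets called and 7.65% called and higher. The median over the 17 was 3.79 log2. Among the 14 were Flt3 (8.28), the receptor of a cytokine for early progenitors, Csf1r (6.92), the macrophage colony-stimulating factor receptor, and Ncf1 (7.67) and Ncf4 (6.69), subunits of the phagocyte oxidase. Fcgr1, Msr1 and Cd14 were not called. In GMP against MEP 14 were higher and 0 lower, beside 14.8% of all probe sets called and 7.54% called and higher. The median was 3.58, and Fcgr1, Msr1 and Il7r were not called. Of the 14 called targets, 6 between the CMP fractions and 5 between GMP and MEP have other probe sets. Another probe set was called the same way for 2 and 3 of these. Fcgr3 is in this list and also encodes a receptor bound by the CD16/32 sort antibody. None of the 17 was called by limma in CD27- CMP against MEP, and 3 of them had an unadjusted p under 0.05. In that comparison 0.0444% of all probe sets were called, so the lack of calls does not set the targets apart. Spi1 did not pass there either.

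Between CD27+ CMP and GMP, which overlapped for Spi1, 3 listed targets were higher and 3 lower, beside 3.04% of all probe sets called. Flt3 was 5.41 log2 higher in CD27+ CMP than in GMP (SE 0.35, adjusted p = 5.8e-05), with 7.09, 7.11 and 7.22 in CD27+ CMP and 0.92, 1.62 and 2.65 in GMP. Ctss, a lysosomal protease, was higher by 1.93 and Il7r, the interleukin-7 receptor, by 0.51, a call that ended without CD27+ CMP replicate 3 (0.48, adjusted p = 0.0501). Fcgr3 (-4.95), Cd14 (-3.41), a lipopolysaccharide co-receptor, and Cybb (-2.66), the catalytic oxidase subunit, were lower.

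**Figure D4:**
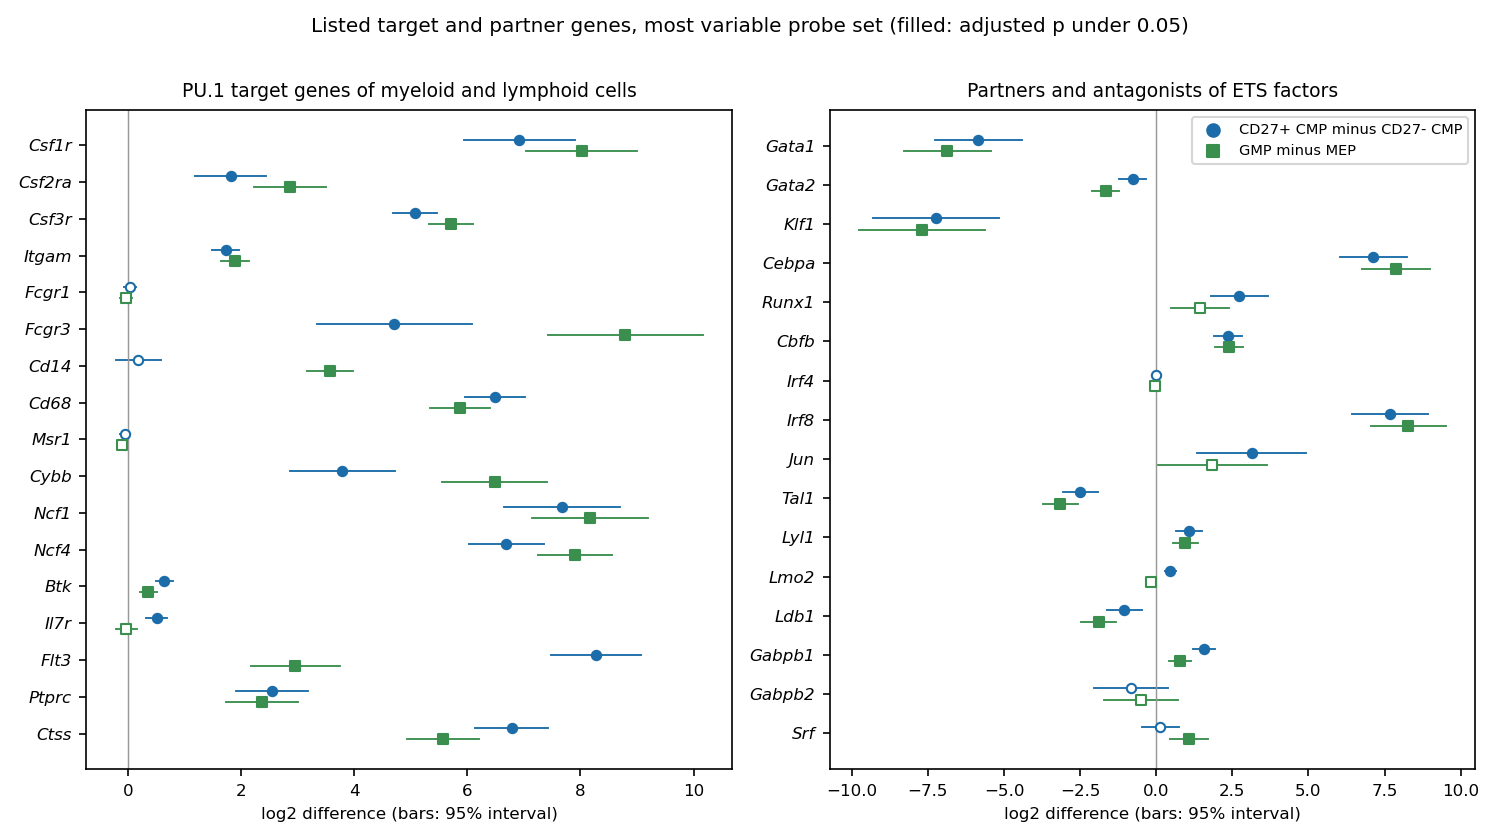
Log2 difference (horizontal axis, with 95% intervals) of listed PU.1 target genes (left) and partners or antagonists of ETS factors (right) in CD27+ CMP minus CD27- CMP (circles) and GMP minus MEP (squares). Filled symbols passed the threshold. Of 17 target genes 14 lie right of 0 and filled in each comparison, while Gata1, Klf1, Tal1, Ldb1 and Gata2 lie left of 0.

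All 16 listed partners and antagonists of ETS factors were measured. In CD27+ against CD27- CMP 8 were higher and 5 lower, beside 14.1% of all probe sets called. In GMP against MEP 6 were higher and 5 lower, beside 14.8%. Of the called genes 5 and 4 have other probe sets, and for 2 in each comparison another was called the same way. Of these calls, those of Jun, Gata2 and Ldb1 between the CMP fractions and of Srf between GMP and MEP ended when single arrays of the compared populations were left out: CD27+ CMP replicate 1 or 2 or CD27- CMP replicate 2 or 3 for Jun, CD27+ CMP replicate 1 or 3 or CD27- CMP replicate 1 or 2 for Gata2, CD27+ CMP replicate 3 or CD27- CMP replicate 1 or 2 for Ldb1, and GMP replicate 1 or 2 or MEP replicate 1 or 3 for Srf (adjusted p from 0.056 to 0.11). Irf8 and Cebpa, whose products act with PU.1 in myeloid cells, were higher by 7.69 and 7.13 log2 in CD27+ CMP and by 8.28 and 7.88 in GMP. Runx1 (2.73) and its cofactor gene Cbfb (2.36) were higher in CD27+ than in CD27- CMP, and Cbfb (2.40) was higher in GMP than in MEP, where Runx1 at 1.43 did not pass (adjusted p = 0.051) but did without CD27+ CMP replicate 2 or CD27- CMP replicate 1 or 3 (1.43, adjusted p = 0.037, 0.045 and 0.016) and with the replicate number as a block (1.43, adjusted p = 0.041). Gabpb1, which encodes the partner of GABPA, was higher by 1.57 in CD27+ CMP, by 0.79 in GMP over MEP and by 0.92 in CD27+ CMP over GMP. The last of these calls ended without CD27+ CMP replicate 1 or 3 or GMP replicate 1 (adjusted p = 0.053, 0.058 and 0.061). In the mean of the probe sets of a gene, the Gabpb1 call in GMP over MEP ended (0.33, adjusted p = 0.062). The Jun call between the CMP fractions ended there too (1.77, adjusted p = 0.058).

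Gata1, the antagonist of Spi1, ran opposite to it. It read -4.15, -2.35 and -3.54 in CD27+ CMP, 2.71, 2.44 and 2.35 in CD27- CMP, -5.87, -4.11 and -3.23 in GMP, and 2.39, 2.50 and 2.51 in MEP. CD27- CMP and MEP overlapped and stood above all other arrays. Between the CMP fractions Gata1 was lower in CD27+ CMP (log2 -5.85, SE 0.63, adjusted p = 0.00018), and it was lower in GMP than in MEP (log2 -6.86, SE 0.63, adjusted p = 5.4e-05). Klf1, an erythroid factor that competes with FLI1, was lower in the same comparisons (log2 -7.23 and -7.69), as was Tal1, an erythroid and stem cell factor (log2 -2.49 and -3.15). CD27- CMP minus MEP was 0.04 for Gata1 and -0.01 for Klf1, beside the 1.10 of Fli1.

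Of 9 megakaryocyte genes with known ETS sites, which FLI1 and its relatives bind, 7 were measured. Gp5, a platelet glycoprotein, was lower in CD27+ CMP than in the CD27- fraction (log2 -4.33, SE 0.51, adjusted p = 0.00031) and in GMP than in MEP (log2 -5.11, SE 0.51, adjusted p = 9.1e-05), the reverse of Fli1. The other 6 did not pass in either comparison, with differences from -1.46 for Pf4 to 0.55 for Ppbp between the CMP fractions. Over all probe sets 14.1% and 14.8% were called in these comparisons. By limma 0 of 7 were called in CD27- CMP against MEP, beside 0.0444% of all probe sets, and 2 had an unadjusted p under 0.05. Gp5 (log2 5.36, SE 0.51, adjusted p = 7.1e-05) and Pf4, platelet factor 4 (log2 2.64, SE 0.56, adjusted p = 0.011), were higher in CD27- CMP than in GMP. The mean over the 7 genes ran from 0.24 to 1.64 over the CD27- CMP arrays and from -0.07 to 1.03 over the MEP arrays, with replicate 1 highest in each. Of 5 corepressor genes of ETV6, 3 were measured, and in the main comparisons none was called: Tbl1xr1 gave 1.77 between the CMP fractions (adjusted p = 0.062) and 0.99 between GMP and MEP (adjusted p = 0.3), Hdac3 -0.24 and -0.33, and Sin3a 0.08 and -0.10. Tbl1xr1 was lower in CD27- CMP than in GMP (log2 -2.20, SE 0.54, adjusted p = 0.024), a call that ended without CD27- CMP replicate 1 or 2 or any GMP array (adjusted p from 0.06 to 0.083). Between the CMP fractions it passed without CD27- CMP replicate 3 (2.43, adjusted p = 0.0027).

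Marker genes of other cells that express ETS factors were read beside these results. Of 7 measured mature T and NK cell markers 0 were called in any of the 7 limma comparisons and 0 had an unadjusted p under 0.05. Over all probe sets 14.1% were called between the CMP fractions, so 0 of 7 does not set these markers apart. Their mean lay between -0.03 and 0.06 in every array. None spanned more than the 0.43 log2 of Cd8a, so they may be undetected or even. Of 6 mature B cell markers Cd79b was called (5.10 between the CMP fractions), while Cd79a, Cd22, Pax5, Ebf1 and Ms4a1 differed by -0.20 to -0.01. None of these uncalled markers spanned more than the 0.36 log2 of Ms4a1, so they too may be undetected or even. Of 7 endothelial markers Pecam1 (5.0), Emcn (1.64) and Tie1 (1.40) were called higher in CD27+ than in CD27- CMP. Of all probe sets 7.65% were called and higher there. The other 4, Cdh5, Kdr, Tek and Esam, were not called. Cdh5 (-0.02) and Kdr (-0.01) spanned 0.09 and 0.07 log2 over the arrays, so they may be undetected or even. The endothelial mean ran from 0.71 to 1.18 in CD27+ CMP, from -0.41 to 0.00 in CD27- CMP, from 0.31 to 0.42 in GMP and from -0.40 to -0.31 in MEP, and its part in the Erg and Fli1 differences was not tested.

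The genes most like 4 members were ranked by Pearson r over the 12 arrays among 8287 genes that spanned 1 log2 or more. The points share 4 populations, so r mainly reads the contrast between them and is a description. For Spi1 the nearest were Igfbp4 (0.995), Anxa2 (0.992), Sh2b2 (0.991), Plcg2 (0.991) and Cmtm3 (0.991), and 12.5% of the genes had an r of at least 0.9. For Fli1 they were Adgrg3 (0.993), Myo1g, Alox5ap, Wls and Pkm (0.991), with 11.6% of the genes at that likeness, and for Erg they were Marcks (0.995), Epb41l2, Gpr171, Txndc16 and Fmnl2 (0.991), with 12.3%. Ets1 had fewer near neighbours, 3.52% of the genes, led by Lamp2 (0.985), Sgip1 (0.979), Ttc32 (0.973), Spsb4 (0.970) and Tctex1d1 (0.970).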

How the data were processed

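RNA of 4 sorted populations was hybridised to 12 one-colour arrays, 3 a population. The log2 values deposited by the authors cover 45037 probe sets and came from GCRMA, per the submitters' processing notes. Its version was not given in the sources used here, nor was the base of its logarithm, which was taken as 2. The median of every probe set lies within 5e-07 of 0, so a filter on low signal could not be applied and all probe sets were tested. Genes were named through the platform annotation: 34945 probe sets have 1 symbol, 932 several and 9160 none.

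Limma 3.58.1 in R 4.3.3 fitted 1 mean per population over all 12 arrays, with 7 contrasts, empirical Bayes moderation (prior degrees of freedom 0.992), two-sided tests and Benjamini-Hochberg adjustment. The number of arrays sets the precision, and the SE of a difference between the CMP fractions was 0.0904 log2 at the median and 0.326 at the 90th percentile. The 95% intervals are not adjusted for the number of tests. By the criterion of every r over 0.1, same-numbered arrays deviated together in 2 pairs of populations. These were GMP and MEP (r = 0.43, 0.27 and 0.58) and CD27+ CMP and GMP (r = 0.57, 0.23 and 0.26). The other 4 pairs of populations did not meet the criterion. It does not weigh differently numbered arrays: CD27+ CMP replicate 2 also had an r of 0.23 with GMP replicate 3. The reported fit did not pair arrays, and the replicate number as a block was an alternative. The labels do not say what a number stands for. No array was left out of the reported fit, and 0 pairs of arrays held identical values.

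The members, lists and tests were chosen with earlier results of these data known. All members are named. From each list up to 6 called genes per direction and comparison could be named, by size, and in lists of at most 5 genes all. The 5 genes most like Spi1, Fli1, Erg and Ets1 were named by Pearson r. Genes named beyond this rule (uncalled targets, partners, marker and megakaryocyte genes) were chosen after their values were seen. The alternatives were quantile normalization, centred arrays, array weights, a replicate block, robust moderation, a range filter of 1 log2, 1 probe set or the mean per gene, and the omission of each array.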

Additional observations from a re-analysis of the deposited data

Results flagged for a closer look

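Fli1, by probe set 1422024_at, gave different values under the same kind of contrast in the CMP fractions and in GMP and MEP. It was 2.69 log2 higher in CD27+ than in CD27- CMP and 4.07 log2 higher in GMP than in MEP, and the difference of these differences was -1.37 log2 (limma, SE 0.17, adjusted p = 0.0063). All 3 CD27+ CMP arrays stood above all 3 CD27- CMP arrays, and all 3 GMP arrays above all 3 MEP arrays, so the direction was shared and the size differed. The other Fli1 probe set, 1433512_at, gave -0.93 (adjusted p = 0.99), and the mean of both probe sets gave -1.15 without passing (adjusted p = 0.12).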

How the results depend on the processing

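Counts of called member probe sets are given here against those of the reported fit. With 1 probe set per gene, 7 of 10 member genes were called in CD27+ against CD27- CMP, GMP against MEP, CD27+ CMP against MEP and CD27- CMP against GMP, and with the mean of the probe sets of a gene 7, 6, 6 and 6, where the reported fit called 12 of 24 probe sets in each. Fewer features enter these counts, and the share over all genes was not computed for them. In CD27+ CMP against GMP, where 2 were called, there were 0 after quantile normalization, 4 with array weights, and 1 each with centred arrays, the replicate block, robust moderation and 1 probe set per gene. In CD27- CMP against MEP, where 1 was called, there were 0 after quantile normalization, with the replicate block and with the mean of the probe sets, and 3 with array weights. In the difference of differences, where 1 was called, there were 2 with array weights and 0 with the mean of the probe sets. The cause of these changes was not tested.

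Leaving out 1 array at a time gave 10 to 13 called member probe sets in CD27+ against CD27- CMP, 11 to 12 in GMP against MEP, 0 to 2 in CD27+ CMP against GMP, 0 to 2 in CD27- CMP against MEP, 10 to 14 in CD27+ CMP against MEP, 11 to 12 in CD27- CMP against GMP and 1 to 2 in the difference of differences. Of the differences of single member probe sets under all alternatives, 3025 kept direction and call, 57 lost the call, 32 gained it and 1 reversed: Elf4 by 1421338_at in CD27+ CMP against MEP, at 0.0334 after quantile normalization. Over all probe sets, array weights gave 13737 calls in CD27+ against CD27- CMP where the reported fit gave 6369, 17650 for 6671 in GMP against MEP, 2533 for 1368 in CD27+ CMP against GMP, 3820 for 20 in CD27- CMP against MEP, 27715 for 7210 in CD27+ CMP against MEP, 12428 for 6393 in CD27- CMP against GMP and 1627 for 494 in the difference of differences. Among the listed genes, tried under the same alternatives after the data were seen, 78 differences lost the call, 110 gained it and 0 reversed, and the called PU.1 targets were 12 to 14 higher in CD27+ against CD27- CMP and 13 to 14 in GMP against MEP. Array weights were estimated by a gene-by-gene method, since another method did not converge. They ran from 0.184 for CD27- CMP replicate 3 to 11.1 for MEP replicate 2, and the next highest was 2.14. With these weights the MEP mean rests mainly on 1 array. In CD27- CMP against MEP the count of all calls ran from 17 to 161 when 1 array was left out.

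Between GMP and MEP 12 member probe sets were called with the replicate block too, while the Etv6 call in CD27+ CMP against GMP ended (adjusted p = 0.0744). Of the pairs of populations in which same-numbered arrays did not all deviate together, CD27- CMP against MEP lost the Fli1 call (adjusted p = 0.0886), and CD27+ CMP against MEP lost the call of Gabpa (-0.82, adjusted p = 0.0609) and gained that of Ets1 by 1452163_at (1.65, adjusted p = 0.0479). The block changed no other call of a member probe set. Among the listed genes in the main comparisons, it ended the Ldb1 call between the CMP fractions (-1.05, adjusted p = 0.0527) and gave one for Runx1 between GMP and MEP.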
